A study of Homo sapiens with 6 samples.

Results

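The genes that encode histones were examined in OCI-AML3 cells, an acute myeloid leukaemia cell line, given the histone deacetylase inhibitor Vorinostat (also called SAHA). A probe set, the group of array probes that reads a transcript, was taken as a member when all the gene symbols it carries are histone genes, under present or older names. This gave 106 of the 54613 probe sets tested, naming 81 of the 21357 gene symbols in the table. Of the 106, 70 probe sets read replication-dependent histone genes (called clustered below), 33 read histone variants and 3 read pseudogenes (H1-9P, H2AC5P and H4C10P). RNA of 3 samples given 1 µM Vorinostat for 24 h and of 3 samples given its solvent DMSO for 24 h was hybridised to Affymetrix HG-U133 Plus 2.0 arrays. The labels name no other agent and no genetic change, and all 6 arrays come from the same cell line. Per the paper, this line carries a mutation of NPM1. Samples carry the replicate numbers 1, 2 and 3 in both groups. Whether the replicates were separate cultures is not given in the sources used here, and the p-values thus reflect the scatter of these samples, part or all of which may be technical.

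DNA is wound around octamers of the core histones H2A, H2B, H3 and H4, and H1 binds the linker between them. The genes of the bulk histones lie mostly in clusters on chromosomes 6 and 1, are transcribed in S phase and give mRNAs that end in a stem-loop bound by SLBP in place of a poly(A) tail. The variants are encoded elsewhere, are made through the cell cycle and mostly give polyadenylated mRNA. H2AX gives both forms. Per the labels, cDNA was made here from an oligo(dT) primer carrying a T7 promoter, which anneals to poly(A). Of the 70 clustered probe sets, 57 name genes on chromosome 6 only and 7 on chromosome 1 only. Another 5 also name H4C16, on chromosome 12, and 1 names H2BC12L, on chromosome 21, outside the clusters.

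The DNA before the start of 4 histone genes follows, to set the layout of a clustered gene beside that of variants. Among variant genes taken by their brightest probe set, H2AX and H2AZ1 had the lowest and H2AJ the highest difference of Vorinostat minus DMSO, and H2BC12 had the highest single value of the clustered probe sets naming 1 gene. Each run holds the 200 bases before the start in RefSeq (GRCh38.p14), written in the direction of transcription. Capitals mark the CCAAT box (CCAAT or ATTGG), the TATA box (TATAAA or TTTATA) and the octamer typical of H2B genes (ATTTGCAT or ATGCAAAT), searched on both strands.
H2AZ1, chr4:99950276-99950475, minus strand: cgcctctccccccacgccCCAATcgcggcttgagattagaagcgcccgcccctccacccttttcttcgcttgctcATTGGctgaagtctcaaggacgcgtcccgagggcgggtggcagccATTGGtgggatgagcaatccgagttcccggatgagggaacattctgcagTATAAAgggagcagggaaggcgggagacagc
H2AX, chr11:119095466-119095665, minus strand: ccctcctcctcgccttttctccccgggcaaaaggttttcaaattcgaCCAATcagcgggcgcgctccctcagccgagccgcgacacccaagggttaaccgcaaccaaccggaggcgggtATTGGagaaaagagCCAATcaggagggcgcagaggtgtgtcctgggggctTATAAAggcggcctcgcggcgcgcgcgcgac
H2AJ, chr12:14774205-14774404, plus strand: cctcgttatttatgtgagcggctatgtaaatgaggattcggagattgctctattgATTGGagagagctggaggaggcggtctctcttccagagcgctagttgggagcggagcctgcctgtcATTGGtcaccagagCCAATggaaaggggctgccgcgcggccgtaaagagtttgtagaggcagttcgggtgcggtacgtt
H2BC12, chr6:27146859-27147058, minus strand: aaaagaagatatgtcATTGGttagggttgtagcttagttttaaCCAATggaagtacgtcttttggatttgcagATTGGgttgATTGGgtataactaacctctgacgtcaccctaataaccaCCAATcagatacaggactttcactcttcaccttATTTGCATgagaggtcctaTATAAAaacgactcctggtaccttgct
H2AZ1 and H2AX each held 3 CCAAT boxes and a TATA box 31 bases before the start. H2AJ held 3 CCAAT boxes and no TATA box in this window. H2BC12 held 5 CCAAT boxes, the octamer 46 bases before the start and a TATA box 27 bases before it. Of the 77 histone genes named by members, with pseudogenes left out, 71 had an entry in the table of promoters, and the motifs were counted in the 250 bases before their starts. A CCAAT box lay in 11 of 14 variant genes (78.6%) and 47 of 57 clustered genes (82.5%), against 33% of all 27305 promoters listed. A TATA box lay in 4 variant genes (28.6%) and 37 clustered genes (64.9%), against 11.1% of all promoters. The octamer lay in 1 variant gene (7.14%), H3-3B, and 22 clustered genes (38.6%), against 1.66% of all promoters. The octamer was in 13 of 16 H2B genes and 8 of 13 H2A genes, and in none of 13 H4 genes. Many H2A and H2B genes lie head to head, so that 1 stretch can be counted for both. A match describes the letters only and is not evidence that a factor was bound in these cells.

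The values are log2 signals per probe set as deposited, and a mean of 3 over the 6 arrays served here as the level above which a probe set was read as above background. Signal differed between arrays of both groups. Probe sets above 3 numbered 8158, 2769 and 3274 on the Vorinostat arrays of replicates 1, 2 and 3, against 8645, 3731 and 2761 on the DMSO arrays. The replicate 1 arrays were thus the brightest in both groups, and Vorinostat replicate 2 was dimmer than DMSO replicate 2 while Vorinostat replicate 3 was brighter than DMSO replicate 3. Of 11 markers of myeloid leukaemia cells listed, 8 had a probe set of their own. NPM1, CTSG, ELANE, LYZ and AZU1 had means of at least 3, whereas KIT, MPO and MEIS1 did not. None of the 18 measured markers of T, B, erythroid, fibroblast or epithelial cells had a mean of 3.

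Calls were made with limma on the deposited values in place of the test of the study, whose own calls can differ from these. By the criterion of the study, more than 2-fold at an unadjusted p below 0.05, this fit called no histone probe set in either direction. Over all probe sets 9 were higher (0.0165%) and 15 lower (0.0275%) in Vorinostat by the same criterion and fit. None of the 106 members had an unadjusted p under 0.05, against 272 probe sets higher (0.498%) and 273 lower (0.5%) among all tested. After Benjamini-Hochberg adjustment no probe set passed (0%), and the lowest adjusted p of a member was 1. With the replicate number as a block, 1 member on the higher side and 1 on the lower had an unadjusted p under 0.05, where 1.59% of all probe sets were higher and 2.09% lower. These were H3C6 (probe set 214616_at, difference 0.48) and H1-6 (207982_at, −0.41). No member met the criterion of the study under the block, which 0.32% of all probe sets did on the lower side, and the lowest adjusted p of a member was then 0.887. With 3 arrays a group the smallest two-sided p of an exact permutation test is 0.1, so none is given. In RNA of whole cultures, fewer cells with a transcript and less transcript per cell cannot be told apart.

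Clustered and variant probe sets differed in how many had signal above background. None of the 70 clustered probe sets had a mean of at least 3, whereas 14 of 33 variant probe sets did (42.4%), against 9.01% of all 54613 probe sets. Variant probe sets above 3 numbered 15, 7 and 11 on Vorinostat replicates 1, 2 and 3, against 14, 12 and 10 on the DMSO arrays. Clustered probe sets above 3 numbered 0 on each Vorinostat array, against 1, 0 and 2 on the DMSO arrays. Values of clustered probe sets ran between 1.10 and 3.54, and those of variants between 1.19 and 10.77. The part of the oligo(dT) priming in these counts was not tested. They set each probe set against the same level of 3 and do not rank transcripts by abundance, since probe sets differ in response.

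**Figure D1:**
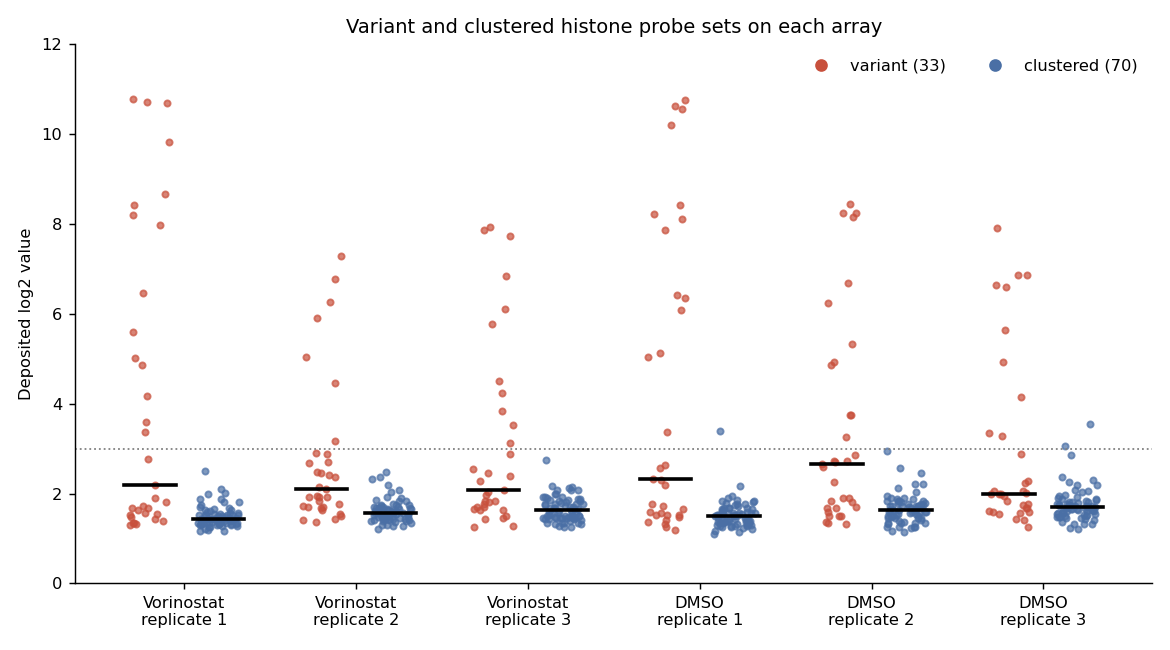
Deposited log2 value (vertical axis) of each of the 33 variant probe sets (red) and 70 clustered probe sets (blue) on every array, with bars at the medians and a dotted line at 3. Only 3 clustered values, all on DMSO arrays, lie above the line, while the variants reach 10.77.

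The clustered genes encode the H2A, H2B, H3 and H4 of newly replicated chromatin and the main H1 linkers. Their median difference, Vorinostat minus DMSO, was −0.04 on the log2 scale over the 70 probe sets, against −0.02 over all probe sets tested, and 47 were negative and 23 positive. By family the median was −0.04 for H1 (7 probe sets), −0.08 for H2A (15), −0.06 for H2B (20), −0.01 for H3 (11) and −0.03 for H4 (15). Within replicates 1, 2 and 3 the median of all clustered probe sets was −0.02, −0.02 and −0.07. H2BC12 (209806_at), an H2B gene, had 2.01, 2.32 and 1.90 on the Vorinostat arrays, against 3.39, 2.03 and 1.80 on the DMSO arrays. The difference was −0.33 ± 0.45 (SE, n = 3 each, as for every difference with an error), and DMSO replicate 1 stood above the other 5 values, which lay between 1.80 and 2.32.

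The lowest clustered difference belonged to 214472_at, which names H2AC7 and 10 H3 genes. It had 1.52, 1.48 and 1.63 on the Vorinostat arrays, against 1.72, 1.77 and 3.54 on the DMSO arrays, a difference of −0.80 ± 0.52. The groups did not overlap, but DMSO replicate 3 alone was above 3. H2BC3 (208547_at) had 1.35, 1.62 and 1.70 in Vorinostat, against 1.50, 1.73 and 3.06 in DMSO, a difference of −0.54 ± 0.44. Here too DMSO replicate 3 stood far from the other arrays. H1-6 (207982_at), the H1 of the testis, had 1.52, 1.63 and 1.34 in Vorinostat, against 1.64, 2.20 and 1.87 in DMSO, with no overlap, while its second probe set (1553568_a_at) had a positive difference of 0.15.

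The highest clustered differences were those of H3C6, H4C9 and H1-1. H3C6 (214616_at) had 1.67, 2.48 and 2.08 in Vorinostat, against 1.40, 1.84 and 1.56 in DMSO, higher in each replicate number with a difference of 0.48 ± 0.24, whereas its second probe set (236278_at) had 0.06. H4C9 (214634_at) had 1.51, 1.54 and 1.93 in Vorinostat, against 1.27, 1.60 and 1.22 in DMSO, a difference of 0.30 ± 0.17. H1-1 (208484_at) had 1.32, 2.36 and 1.65 in Vorinostat, against 1.30, 1.88 and 1.48 in DMSO, a difference of 0.22 ± 0.31. All of these values lay under 3, where probe sets were read as background. Over all 106 members the groups did not overlap in 2 probe sets higher in Vorinostat (H1-7 238374_at and H2AJ 228213_at), against 2.39% of all probe sets, and in 3 lower ones (H1-6, 214472_at and 215779_s_at of H2BC11 and H2BC8), against 2.87%. The 3 pseudogene probe sets had values between 1.22 and 2.08 and differences between −0.16 and 0.11. Among the members 25 probe sets name several genes and 21 carry the suffix of probes that can bind near-identical transcripts, so their signal may hold that of other histone transcripts.

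Among the variants, H2AX, H2AZ1 and MACROH2A1, taken by their brightest probe sets, had the lowest means in Vorinostat relative to DMSO. H2AJ had a higher one, but in the brightest probe set of each gene the arrays of both groups overlapped. H2A.Z sits in nucleosomes at promoters and is put there by the SRCAP and EP400 complexes. Its gene H2AZ1, on chromosome 4, had 9.83, 5.91 and 6.83 on the Vorinostat arrays, against 10.61, 8.16 and 6.64 on the DMSO arrays (213911_s_at), and averaged 7.52 ± 2.05 in Vorinostat and 8.47 ± 2.00 in DMSO (SD, n = 3 each). The difference was −0.95 ± 1.42 (SE), with a 95% interval of −4.52 to 2.63, and it was −0.34 after quantile normalisation. The other probe set of H2AZ1 (200853_at) had 8.19, 2.89 and 4.49 in Vorinostat, against 8.21, 4.92 and 4.92 in DMSO, a difference of −0.83. Both gave over 2 log2 units less in Vorinostat in replicate 2, and they split in sign in replicate 3 (0.19 and −0.43). The spread of either group across its 3 arrays exceeded the difference between groups.

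The second H2A.Z gene, H2AZ2 on chromosome 7, had 7.96, 2.42 and 2.38 in Vorinostat, against 7.87, 3.76 and 2.28 in DMSO (202487_s_at), a difference of −0.38 ± 2.15. It was high on the replicate 1 array of both groups, which differed by 0.09. Of its 4 probe sets, 3 had negative differences, down to −0.45, and 212206_s_at had 0.46. The difference of 202487_s_at turned to 0.10 without the replicate 2 arrays.

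H2A.X is phosphorylated around double-strand breaks and marks them for repair. H2AX, on chromosome 11, had 4.87, 2.71 and 4.23 on the Vorinostat arrays, against 6.09, 4.86 and 4.14 on the DMSO arrays (205436_s_at), a difference of −1.10 ± 0.74 with a 95% interval of −2.96 to 0.77. Vorinostat was lower in replicates 1 and 2, by 1.23 and 2.15 log2 units, and higher in replicate 3 by 0.09. This was the lowest group difference of all 106 members, and it was −0.48 without Vorinostat replicate 2 and −0.56 without DMSO replicate 1. The other 3 probe sets of H2AX lay under 2 on every array, with differences between −0.11 and 0.16.

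H2A.J differs from bulk H2A at its C-terminal end. H2AJ, on chromosome 12, was the gene with no negative difference among its 4 probe sets that also had a probe set with a mean of at least 3. The brightest (224301_x_at) had 3.60, 3.16 and 3.84 on the Vorinostat arrays, against 2.63, 3.27 and 3.34 on the DMSO arrays, a difference of 0.45 ± 0.27 with a 95% interval of −0.22 to 1.13. It was higher in Vorinostat in replicates 1 and 3 and lower by 0.10 in replicate 2. Both probe sets of H2AJ with a mean above 2, 224301_x_at and 225245_x_at, carry the suffix of probes that can bind near-identical transcripts. Without DMSO replicate 1 the difference of 224301_x_at was 0.23. The remaining probe sets had differences of 0.12 (225245_x_at), 0.20 (228213_at) and 0.00 (220936_s_at). In 228213_at the groups did not overlap, with 1.81, 1.77 and 2.08 in Vorinostat, against 1.72, 1.67 and 1.68 in DMSO, all under 3.

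MacroH2A carries a large globular domain outside the nucleosome and is found in silent chromatin. MACROH2A1, on chromosome 5, had 8.43, 4.46 and 6.10 in Vorinostat, against 8.12, 6.67 and 6.86 in DMSO (207168_s_at), a difference of −0.89 ± 1.07 that was −0.43 after quantile normalisation. Vorinostat replicate 1 was the highest of the 6 arrays and Vorinostat replicate 2 the lowest. Without Vorinostat replicate 1 the difference was −1.94 and met the criterion of the study, and without Vorinostat replicate 2 it was 0.050. Its second probe set with a mean of at least 3 (214501_s_at) had 5.59, 2.67 and 2.28 in Vorinostat, against 6.36, 5.33 and 1.99 in DMSO, a difference of −1.05. The other 5 probe sets had means under 3 and differences between −0.27 and 0.11. MACROH2A2, on chromosome 10, was under 3 on every array, with 1.48, 2.10 and 2.45 in Vorinostat, against 1.77, 2.25 and 2.06 in DMSO, a difference of −0.02 that became 0.085 after quantile normalisation.

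**Figure D2:**
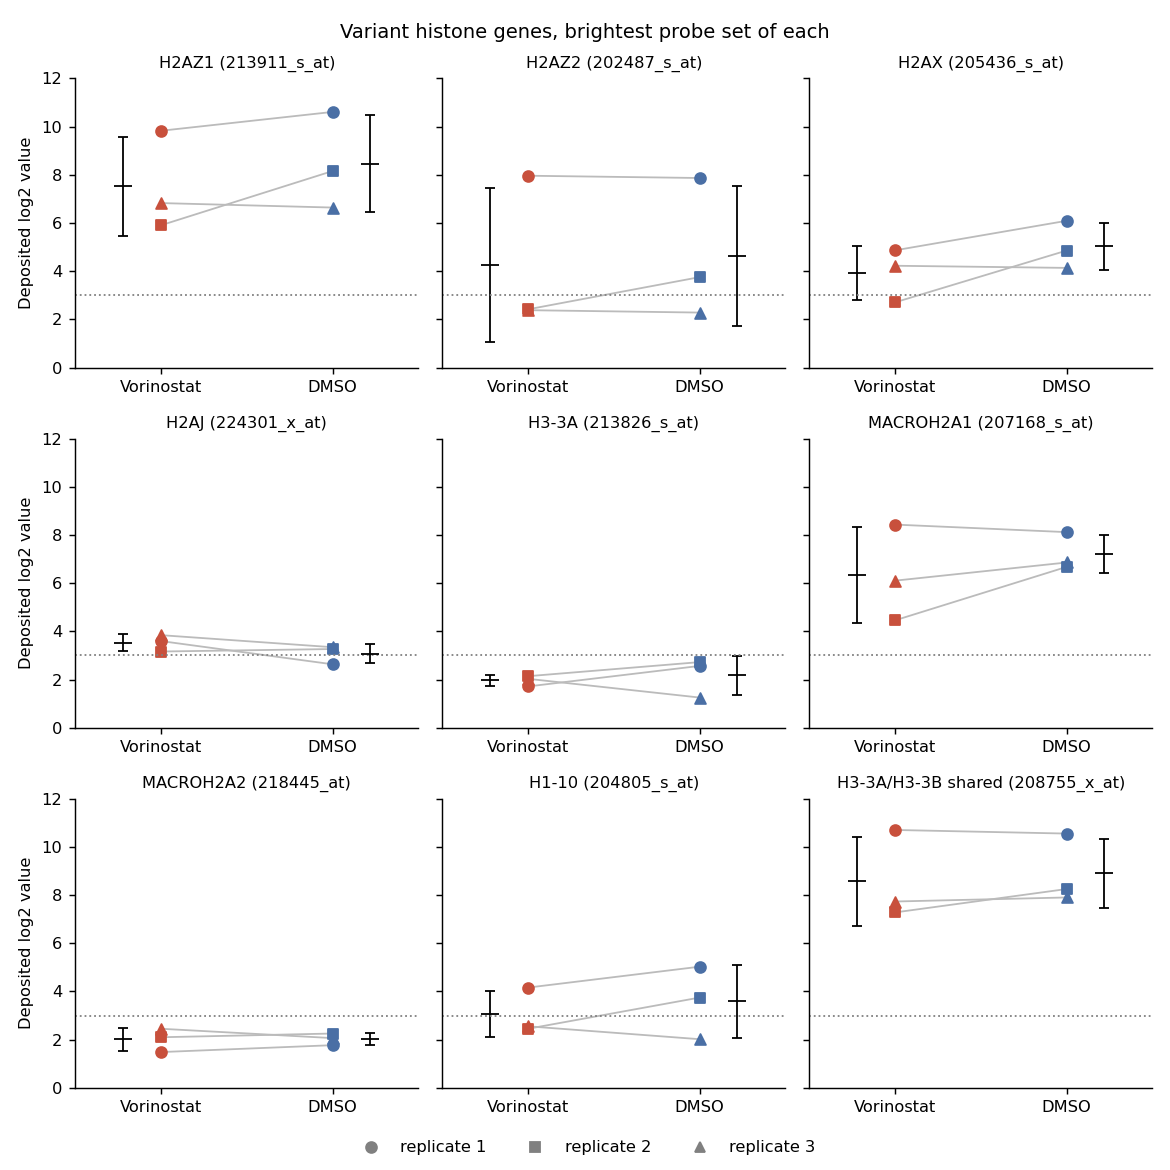
Deposited log2 value (vertical axis) on the Vorinostat (red, left) and DMSO (blue, right) arrays for the brightest probe set of 8 variant genes and of the shared H3-3 set. Symbols give the replicate number, grey lines join equal numbers, black bars are mean ± SD (n = 3) and the dotted line is at 3. H2AZ1, H2AX and H1-10 lie lower in Vorinostat in replicates 1 and 2 and higher in replicate 3, and the SDs of the groups overlap for each gene.

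H3.3 replaces H3 outside replication and is deposited by HIRA at active genes and by DAXX with ATRX at repeats. It is encoded by H3-3A on chromosome 1 and H3-3B on chromosome 17, and 4 probe sets read both genes and the pseudogene H3P6. The brightest of these (208755_x_at) had 10.70, 7.28 and 7.73 in Vorinostat, against 10.55, 8.25 and 7.90 in DMSO, a difference of −0.33 ± 1.17. The other 3 had differences of −0.27 (200080_s_at), −0.25 (213828_x_at) and −0.02 (211940_x_at). Another 4 probe sets read H3-3A and H3-3B but also carry a microRNA symbol and lie outside the members. Of these, 3 had a mean of at least 3, with differences of −0.71, −0.62 and −0.74, and the dimmest had 0.22. After quantile normalisation all 4 differences of the members were positive, between 0.15 and 0.64, so that their direction depends on the scaling. Within replicates 1, 2 and 3 their medians were 0.20, −1.44 and 0.57 as deposited, against 0.20, 0.31 and 0.61 after quantile normalisation. The probe set of H3-3A alone (213826_s_at) was under 3 on every array, with 1.71, 2.14 and 2.03 in Vorinostat, against 2.56, 2.72 and 1.25 in DMSO.

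H1-10 encodes H1X, a linker histone made outside S phase. It had 4.16, 2.45 and 2.55 in Vorinostat, against 5.03, 3.75 and 2.02 in DMSO (204805_s_at), a difference of −0.54 ± 0.89 that was −0.23 after quantile normalisation. The linkers of male and female germ cells, H1-7 and H1-8, were under 3 throughout. H1-7 (236876_at) had 1.55, 2.47 and 1.63 in Vorinostat, against 1.36, 1.91 and 2.06 in DMSO, and its 3 probe sets had differences between 0.03 and 0.18. H1-8 (1553064_at) had 1.29, 1.73 and 1.84 in Vorinostat, against 1.59, 1.69 and 2.24 in DMSO, a difference of −0.22. The testis variants H2AB1, H2AB2 and H2AB3 share a probe set (214412_at) with 1.35, 1.42 and 1.29 in Vorinostat, against 1.26, 1.83 and 1.68 in DMSO.

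**Figure D3:**
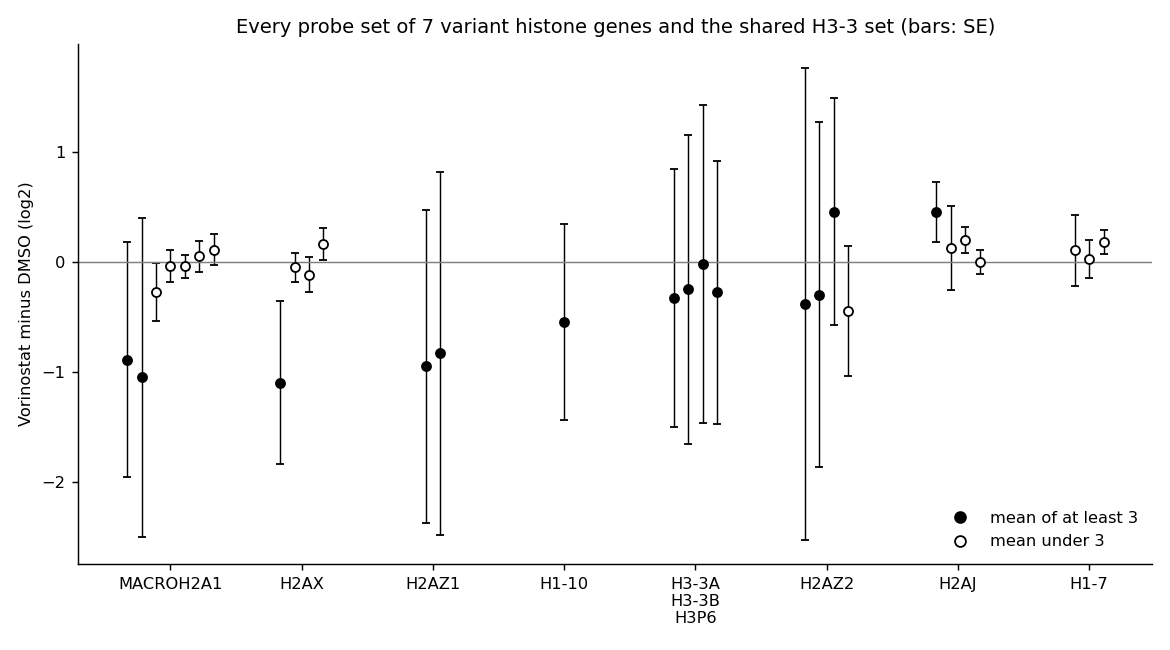
Difference of Vorinostat minus DMSO (log2, vertical axis) for every probe set of 7 variant genes and the shared H3-3 set, ordered by mean value within a gene, with bars of 1 SE. Filled points have a mean of at least 3. MACROH2A1 and H2AX show negative differences in their bright probe sets and values between −0.27 and 0.16 in the dim ones, and the bars of the bright probe sets reach 0 except for H2AX and H2AJ.

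The replicate numbers gave different pictures of the variants. The median difference of the 14 variant probe sets with a mean of at least 3 was 0.00 within replicate 1, −1.51 within replicate 2 and 0.16 within replicate 3. Vorinostat was lower in 7, 13 and 3 of the 14. The mean spans all 6 arrays, and single values can lie under 3. Above 3 were 14, 7 and 10 of the 14 on Vorinostat replicates 1, 2 and 3, against 13, 12 and 9 on the DMSO arrays. Part of the differences within replicates 2 and 3 thus rests on values under 3. The 4920 probe sets of all genes with a mean of at least 3 had medians of −0.13, −0.76 and 0.19, and 57.5%, 85.9% and 35.7% of them were lower in Vorinostat. In replicates 2 and 3 the variants thus had the sign of the bright probe sets of all genes and of the gap in array brightness, whose part in their values was not tested. After quantile normalisation the medians of the 14 were 0.10, −0.68 and 0.13, against 0.01, −0.41 and 0.05 over the 4920. On the brightest pair, replicate 1, the bright probe sets of H2AX, H1-10 and H2AZ1 were lower in Vorinostat by 1.23, 0.87 and between 0.02 and 0.78, those of H2AZ2 lay between −0.12 and 0.09, and H2AJ was higher by 0.96. On the same pair the 2 bright probe sets of MACROH2A1 differed by 0.31 and −0.77, and the shared H3-3 sets lay between −0.07 and 0.58.

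**Figure D4:**
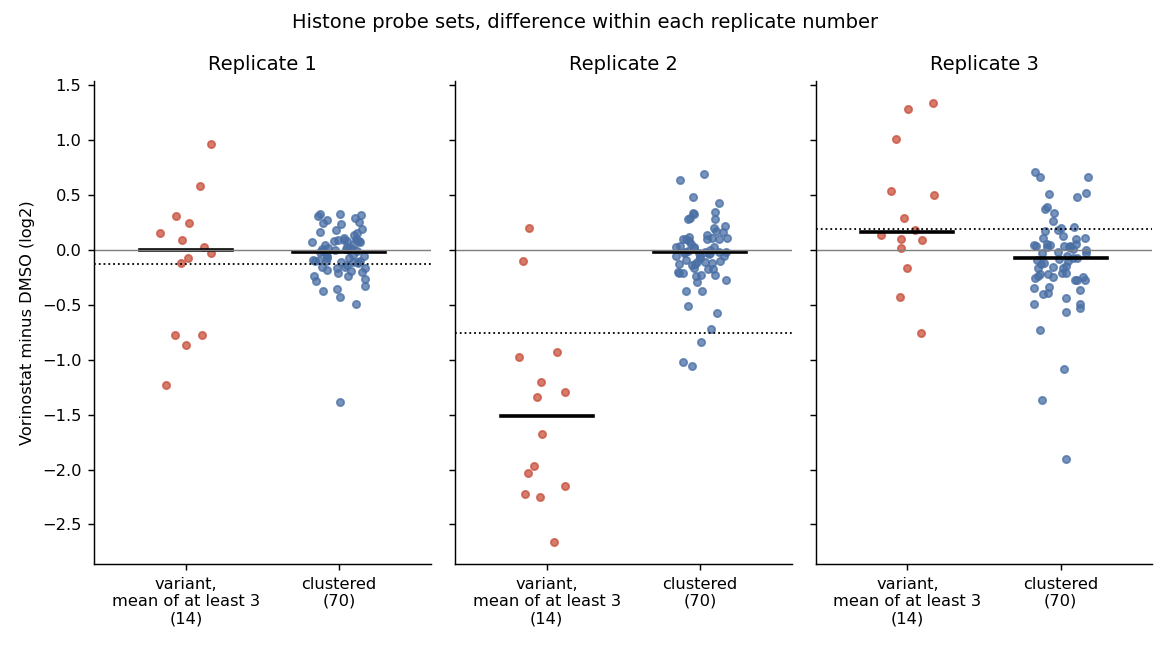
Difference of Vorinostat minus DMSO (log2, vertical axis) within replicates 1, 2 and 3 for the 14 variant probe sets with a mean of at least 3 (red) and the 70 clustered probe sets (blue). Thick bars are medians and dotted lines the median of all 4920 probe sets with a mean of at least 3. The variant median is −1.51 in replicate 2 and near 0 in replicates 1 and 3, and the clustered median is near 0 in each. None of the clustered probe sets has a mean of at least 3.

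Across the 10 variant genes with a probe set of their own, taking the brightest of each, the median difference was −0.30, and within replicates 1, 2 and 3 it was −0.29, −0.94 and 0.14. Without DMSO replicate 3 the median was −0.87, and without DMSO replicate 1 it was −0.064. Of the 14 bright variant probe sets 12 had a negative difference, against 69.8% of all 4920, and after quantile normalisation 8 of the 14 did, against 2771 of the 4920. Of all 106 members 70 had one, against 54% of all probe sets. Differences had the same sign in the 3 numbers for 9 members that were higher and 12 that were lower in Vorinostat, against 12.4% and 14.7% of all probe sets. Among the bright variants this held for 1 of 14, H2AZ1 (200853_at, lower), against 19.4% of the 4920 on the lower side.

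Clustered histone mRNAs are transcribed with the help of NPAT and cut at their 3′ ends by a complex of SLBP, the U7 particle and cleavage factors. Of 20 genes in a list of this machinery none had an unadjusted p under 0.05 in either direction, where 0.498% of all probe sets were higher and 0.5% lower. In the list 14 were negative, against 54% of all probe sets and 69.8% of those with a mean of at least 3, as 12 of the 20 had. The median was −0.31, against −0.02 over all probe sets and −0.24 over those with a mean of at least 3. SLBP (206052_s_at) had 7.11, 3.74 and 3.43 in Vorinostat, against 6.06, 4.32 and 3.61 in DMSO, a difference of 0.10 ± 1.20 that had opposite signs between replicates. NPAT (209798_at) had 2.58, 2.01 and 2.13 in Vorinostat, against 2.81, 1.96 and 1.82 in DMSO, under 3 throughout. The nearest to the threshold was COIL (203654_s_at), coilin of the Cajal body, with 4.79, 2.998 and 4.72 in Vorinostat, against 6.29, 5.68 and 4.86 in DMSO. COIL and CPSF2, a cleavage factor with a difference of −1.04, had an unadjusted p under 0.05 with the block, on the lower side. That side held 2.09% of all probe sets and 453 of the 4920 with a mean of at least 3, as both genes had.

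Histone chaperones carry histones to DNA and put variants in place. The list of them used here also holds CENPA, itself an H3 variant, whose symbol was not among the histone names that made a probe set a member. Of 30 in the list, 16 with a mean of at least 3, 22 were negative with a median of −0.30, beside the same 54% and 69.8% and medians of −0.02 and −0.24. On the higher side 1 passed an unadjusted p under 0.05, against 0.498% of all probe sets, and on the lower side none did. This was TSPYL2 (218012_at), a protein of the nucleosome assembly family, with 3.09, 4.40 and 4.48 in Vorinostat, against 2.43, 3.26 and 2.39 in DMSO, a difference of 1.30 ± 0.47 that also met the criterion of the study. It was higher in Vorinostat in each replicate number. HIRA (217427_s_at) had 5.80, 2.09 and 1.97 in Vorinostat, against 2.30, 1.97 and 2.28 in DMSO, and Vorinostat replicate 1 alone was above 3. With the block, NPM1, NASP, CHAF1A and UBN1 on the lower side and TSPYL2 and SRCAP on the higher had an unadjusted p under 0.05. Of these, UBN1 (2.70) and SRCAP (2.66) had means under 3. At that p, 2.09% of all probe sets were lower and 1.59% higher. Among the 4920 with a mean of at least 3, 453 were lower and 119 higher.

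Clustered histone genes are transcribed while DNA is copied, so 10 genes of DNA synthesis and proliferation were set beside them. All 10 were negative, 8 of them with a mean of at least 3, against 69.8% of all probe sets at that level. Their median was −1.12, and within replicates 1, 2 and 3 it was −1.76, −1.82 and −0.19, against −0.13, −0.76 and 0.19 over all probe sets with a mean of at least 3. None had an unadjusted p under 0.05 without the block, and CDC6, MCM5, TYMS and TOP2A did with it, on the lower side. Of these, CDC6 had a mean of 2.08, under 3. The lower side held 2.09% of all probe sets and 453 of the 4920 with a mean of at least 3. TYMS, thymidylate synthase (202589_at), had 8.67, 4.12 and 5.09 in Vorinostat, against 9.74, 6.60 and 5.95 in DMSO. MCM5 (216237_s_at), a subunit of the replicative helicase, had 4.86, 2.89 and 3.79 in Vorinostat, against 7.39, 5.04 and 3.99 in DMSO. Both were lower in Vorinostat in each replicate number. The clustered histone probe sets had a median of −0.02, −0.02 and −0.07 within the same numbers. None of those 70 had a mean of at least 3, so these medians cannot show whether clustered histone mRNA changed.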

How the data were processed

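RNA of 6 OCI-AML3 samples was measured on arrays. The authors deposited log2 values of every probe set on each array in 1 table. Partek Genomics Suite is named in the paper's methods, and MAS5 and RMA, without role or version, in the submitters' processing notes. After 62 control probe sets of 54675 were left out, 54613 were tested without further normalisation. Symbols came from the platform annotation, updated through RefSeq, and 41091 probe sets named 1 gene. Vorinostat was compared with DMSO (n = 3 each) by limma 3.58.1 in R 4.3.3 (lmFit, eBayes) and p-values were adjusted over all 54613 by Benjamini-Hochberg. The script was tested on simulated data. The criterion of the study is a change of more than 2-fold at an unadjusted p below 0.05. Equal replicate numbers were treated as paired. Deviations from group means correlated at 0.874, 0.599 and 0.672 between arrays of the same replicate number, and at 0.695 and 0.594 across numbers 2 and 3. These correlations set replicate 1 apart but cannot tell whether numbers 2 and 3 pair as labelled. The block and the differences within replicates 2 and 3 thus rest on the labels. Every variant gene among the members was named, with the members whose groups were apart. Of the rest, the 3 highest and 3 lowest differences were named, and up to 4 genes of a list in each direction. H2BC12, SLBP, NPAT, HIRA and the list genes with an unadjusted p under 0.05 with the block were named after their values were seen. Members and lists were chosen with earlier results of these data known. Alternatives were the block, quantile normalisation, centring on the 75th percentile, filters, another choice of probe sets, the methods' test and arrays left out.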

Additional observations from a re-analysis of the deposited data

How the results depend on the processing

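No histone probe set met the criterion of the study on the higher side under any alternative run for this count. Percentile centring was not run for it. On the lower side the count was 0 with the replicate block and between 0 and 1 with single arrays left out, the 1 being MACROH2A1 (207168_s_at) without Vorinostat replicate 1. With single arrays left out, the median of the variant genes lay between −0.87 and −0.064 and that of the clustered probe sets between −0.11 and −0.00084, negative in each. Of 168 alternatives run on 14 named differences, 37 turned the sign, 130 did not and 1 met the criterion. The replicate block and the methods' test leave a difference unchanged by design, so their entries among the 130 could not turn a sign. Percentile centring moved the differences little, as for H2AZ2 from −0.3811 to −0.3797. The 130 are thus no measure of how stable the signs were. Quantile normalisation turned MACROH2A2 to 0.085 and the shared H3-3 probe sets to 0.15 (200080_s_at), 0.45 (208755_x_at), 0.64 (211940_x_at) and 0.45 (213828_x_at). Leaving out both replicate 1 arrays turned H3-3A to 0.10 and MACROH2A2 to 0.12. Leaving out both replicate 2 arrays, an alternative chosen after seeing the data, turned H2AZ2 to 0.10, MACROH2A2 to 0.051, H1-7 to −0.12, 200080_s_at to 0.19, 211940_x_at to 0.96 and 213828_x_at to 0.47. With single arrays left out the differences ran from −2.24 to 1.24 for H2AZ2, −1.33 to 0.17 for H1-10, −1.94 to 0.050 for MACROH2A1, −0.68 to 0.052 for H3-3A, −2.10 to 0.12 for H2AZ1, −0.24 to 0.25 for MACROH2A2 and −0.19 to 0.27 for H1-7. They ran from −1.56 to −0.48 for H2AX, 0.23 to 0.64 for H2AJ and −0.34 to −0.018 for H1-8, which kept their signs. H1-8 did so although it was under 3 on every array. For the shared H3-3 probe sets they ran from −1.36 to 0.55 (200080_s_at), −1.39 to 0.50 (208755_x_at), −1.24 to 1.01 (211940_x_at) and −1.37 to 0.79 (213828_x_at). The causes were not tested. A probe set under 3 limits what can be read of its gene, which covers every clustered probe set by its mean.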
